A study of Homo sapiens with 6 samples.

Results

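Keratins are the intermediate filament proteins of epithelial cells, and 10 keratin genes of stratified epithelia, wound response and hair are described here in AGS cells, a line established from a human adenocarcinoma of the stomach. They are KRT80, KRT17, KRT81, KRT86, KRT6A, KRT13, KRT15, KRT16, KRT5 and KRT14, out of 52 keratin genes and 18597 genes in the tables. The 10 were chosen by gene symbol, and the choice was made with the difference in FPKM between the groups already known, above all the low values of KRT80 and KRT17 after siDUB1. Their differences between the groups are therefore given as a description, with no test. Total RNA was sequenced in 3 libraries of AGS cells transfected with siDUB1, a small interfering RNA against DUB1, and in 3 libraries of AGS cells transfected with siControl, a control small interfering RNA. The cells of both groups were plated in the same format and are of 1 cell line. The labels give neither the time after transfection nor whether replicates were separate cultures, so errors and p-values cover the spread of these samples alone, and that spread may be technical.

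Keratin filaments are built from pairs of a type I and a type II chain, and each epithelium is known for its own pairs. Simple epithelia such as the gastric lining use mainly KRT8 with KRT18 and KRT19. Basal cells of stratified epithelia use KRT5 with KRT14, and KRT15 marks part of that layer and the hair follicle bulge. KRT6A, KRT16 and KRT17 are induced at wound edges in skin, KRT13 belongs to the upper layers of internal stratified epithelia such as the oesophagus, KRT80 is a type II keratin found in many differentiating epithelia, and KRT81 and KRT86 are type II keratins of the hair shaft. Of the 10, KRT80, KRT81, KRT86, KRT6A and KRT5 are type II chains of the chromosome 12 cluster, and KRT17, KRT13, KRT15, KRT16 and KRT14 are type I chains of the chromosome 17 cluster.

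KRT81 and KRT86 need their sequences shown first, because they share enough of them that reads could be assigned to either gene. Their coding sequences in GENCODE 29 (1515 and 1458 bases without the stop codon) aligned over 1454 bases with 93.6% identity and 93 differing bases, and the longest identical run was 605 bases. The aligned stretch of 120 bases with the most differences has 19 and is shown for both genes. Capitals mark the bases that differ between the genes, the sequence is that of the transcript from 5′ to 3′, and positions count from the first base of the start codon. The stretch is coding bases 1207 to 1326 in both genes.
KRT81 most different stretch: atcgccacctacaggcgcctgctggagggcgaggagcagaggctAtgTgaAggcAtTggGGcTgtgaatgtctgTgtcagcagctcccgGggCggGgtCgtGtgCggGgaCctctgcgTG
KRT86 most different stretch: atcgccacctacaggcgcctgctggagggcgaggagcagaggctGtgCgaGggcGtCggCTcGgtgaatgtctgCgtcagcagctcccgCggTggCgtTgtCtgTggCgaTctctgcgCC

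Of the 1209 windows of 120 coding bases that align without a gap, 498 hold no difference at all. Over the whole KRT86 transcript, 25.4% of windows of 100 bases also occur in a KRT81 transcript, and 29.4% of the windows of KRT81 occur in one of KRT86. KRT81 (GRCh38, chromosome 12, 52285913 to 52291534, minus strand) also lies inside the span of KRT86 (chromosome 12, 52274645 to 52309163, plus strand), although their annotated exons share 0 bases. The sources used here do not say how reads matching both genes were assigned, so the split between KRT81 and KRT86 is uncertain. KRT6A likewise shares 17.6% of its windows of 100 bases with KRT6C and 10.7% with KRT6B. KRT16 and KRT14 share 3.82% and 3.77% of theirs with each other. KRT17 shares 0.322% of its windows of 100 bases with its pseudogenes, but 15.98% of its windows of 50 bases occur in another gene. For KRT80, KRT13 and KRT15 no window of 100 bases occurred in another annotated gene.

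Expression was deposited as FPKM, fragments normalised to transcript length and to the mapped fragments of the library, and the depth of the libraries is unknown. Replicate 3 of siDUB1 stands apart: across genes on the log2(FPKM + 1) scale its r was 0.964 with siDUB1 replicate 1 and 0.960 with replicate 2, while every other pair within a group had 0.997 to 0.998, so results are also given without it. USP36, the gene that carries the synonym DUB1, had 4.11, 4.75 and 2.59 FPKM in siDUB1 libraries and 9.16, 6.74 and 7.25 FPKM in siControl libraries (log2 change -0.87, limma adjusted p = 0.0432, and 0.0509 to 0.179 without any 1 library other than siDUB1 replicate 3). All 6 epithelial markers reached 1 FPKM, with KRT8 averaging 3373 FPKM in siDUB1 and 3691 FPKM in siControl libraries. EPCAM averaged 182 FPKM in siDUB1 and 260 FPKM in siControl libraries. CDH1 was low, averaging 1.64 FPKM in siDUB1 and 3.15 FPKM in siControl libraries. For EPCAM and CDH1 every siDUB1 library lay below every siControl library, while for KRT8, KRT18, KRT19 and CLDN4 the groups overlapped. Gastric mucosal markers were mostly low: 2 of 6, TFF1 and CLDN18, reached 1 FPKM in any library. GKN1 was listed at 0 in all 6 libraries. TFF1 averaged 20.2 FPKM in siDUB1 and 14.4 FPKM in siControl libraries. CLDN18 averaged 1.12 FPKM in siDUB1 and 0.42 FPKM in siControl libraries. For TFF1, CLDN18 and TFF2 (at most 0.38 FPKM) every siDUB1 library lay above every siControl library. For MUC5AC and MUC6 the groups overlapped. Defining markers of basal keratinocytes were low. TP63, the master regulator of stratified epithelia, averaged 0.223 FPKM in siDUB1 and 0.153 FPKM in siControl libraries. The 5 markers, which include KRT5 and KRT14 of the 10, summed to 4.11 to 5.32 FPKM in siDUB1 and 6.19 to 6.74 FPKM in siControl libraries. Most of each of these sums was COL17A1, which averaged 3.24 FPKM in siDUB1 and 4.72 FPKM in siControl libraries. Markers of endothelium (3) stayed under 0.2 FPKM, and PTPRC, the pan-leukocyte marker, averaged 0.307 FPKM in siDUB1 and 0.197 FPKM in siControl libraries. Of 4 immune markers 2 reached 1 FPKM, LYZ and CD68, and the 4 summed to 382 to 650 FPKM in siDUB1 and 193.7 to 194 FPKM in siControl libraries. Most of each sum was LYZ, which averaged 542 FPKM in siDUB1 and 186 FPKM in siControl libraries. Of 5 fibroblast markers COL1A1 alone reached 1 FPKM, and the 5 summed to 8.40 to 11.2 FPKM in siDUB1 and 18.9 to 19.7 FPKM in siControl libraries. The part of these shifts in the keratin values was not tested.

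The 3 most abundant of the 10 keratins were all about 5 times lower after siDUB1. KRT80 (NCBI Gene 144501, chromosome 12, 52168996 to 52192014) had 44.31, 45.26 and 41.56 FPKM in the siDUB1 libraries, against 244.49, 243.72 and 233.29 FPKM in the siControl libraries. The siDUB1 libraries lay close together and far below every siControl library. The means were 43.7 ± 1.92 FPKM in siDUB1 and 240.5 ± 6.26 FPKM in siControl (SD, n = 3 each), which is 5.50-fold lower, with a log2 change of -2.43 (SE 0.08, 95% interval -2.62 to -2.25). In order of abundance, by mean FPKM over all genes in the tables, KRT80 stood at rank 2064 in siDUB1 and at rank 349 in siControl libraries. Without siDUB1 replicate 3 its log2 change was -2.40. In these bulk samples fewer cells with KRT80 and less KRT80 RNA per cell cannot be told apart, and the same holds for every gene below.

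KRT17 (NCBI Gene 3872, chromosome 17, 41619442 to 41624575), the type I keratin that wounded and proliferating epithelia induce, had 35.01, 32.87 and 50.24 FPKM in siDUB1 libraries, against 206.15, 218.83 and 205.04 FPKM in siControl libraries. Replicate 3 was the highest of the siDUB1 libraries, and the groups were far apart with or without it. The means were 39.4 ± 9.47 FPKM in siDUB1 and 210.0 ± 7.66 FPKM in siControl (SD, n = 3 each), 5.33-fold lower, with a log2 change of -2.41 (SE 0.16), or -2.59 without siDUB1 replicate 3. KRT81 (NCBI Gene 3887) had 13.36, 12.08 and 18.34 FPKM in siDUB1 libraries and 68.53, 77.82 and 73.83 FPKM in siControl libraries. Again replicate 3 was the highest of the siDUB1 libraries, at 1.44 times the mean of the other two, and the groups did not overlap. The means were 14.6 ± 3.31 FPKM in siDUB1 and 73.4 ± 4.66 FPKM in siControl (SD, n = 3 each), 5.03-fold lower, with a log2 change of -2.27 (SE 0.16), or -2.44 without siDUB1 replicate 3. Among the 10994 genes tested, 7, 9 and 12 genes had a log2 change as low as or lower than that of KRT80, KRT17 and KRT81, these genes included.

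**Figure D1:**
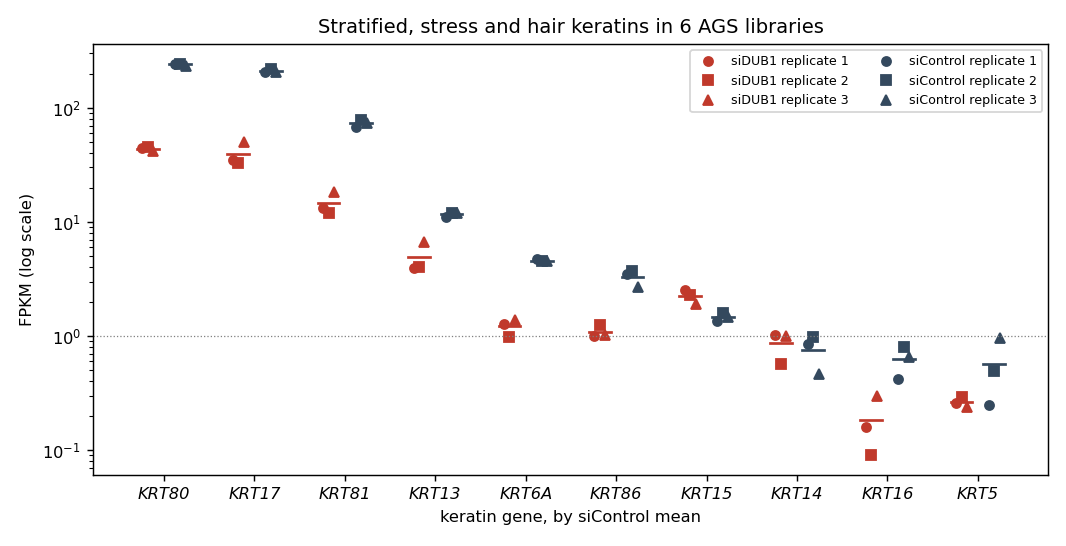
FPKM of the 10 keratins (log axis) in each siDUB1 library (red) and each siControl library (dark blue), with a bar at each group mean, ordered by siControl mean; the dotted line marks 1 FPKM. KRT80, KRT17 and KRT81 lie far lower in every siDUB1 library, KRT15 lies slightly higher, and KRT14 and KRT5 overlap.

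The next keratins, KRT13, KRT6A and KRT86, were less abundant and also lower after siDUB1. KRT13 (NCBI Gene 3860, chromosome 17, 41500981 to 41505612) had 3.94, 4.06 and 6.62 FPKM in siDUB1 libraries, against 11.03, 12.04 and 11.86 FPKM in siControl libraries. The groups did not overlap, and siDUB1 replicate 3 was again the nearest to the controls, at 1.66 times the mean of the other two. The mean was 2.39-fold lower, with a log2 change of -1.13 (SE 0.19), or -1.34 without siDUB1 replicate 3. KRT6A (NCBI Gene 3853, chromosome 12, 52487176 to 52493257) had 1.27, 0.97 and 1.39 FPKM in siDUB1 libraries, against 4.70, 4.52 and 4.52 FPKM in siControl libraries, 3.79-fold lower by the means. KRT86 (NCBI Gene 3892) had 0.99, 1.24 and 1.01 FPKM in siDUB1 libraries and 3.46, 3.74 and 2.71 FPKM in siControl libraries, 3.06-fold lower by the means. Neither KRT6A nor KRT86 had overlapping groups. Their log2 changes, -1.34 (SE 0.12) and -1.04 (SE 0.13), are on the log2(FPKM + 1) scale, which understates the change of low genes. With a pseudocount of 0.1 these changes were -1.85 and -1.52.

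KRT15 went the other way. KRT15 (NCBI Gene 3866, chromosome 17, 41513745 to 41518890) had 2.54, 2.28 and 1.89 FPKM in siDUB1 libraries, against 1.36, 1.58 and 1.48 FPKM in siControl libraries. Every siDUB1 library lay above every siControl library, and replicate 3 was here the lowest of the siDUB1 libraries. The means were 2.24 ± 0.327 FPKM in siDUB1 and 1.47 ± 0.110 FPKM in siControl (SD, n = 3 each), a ratio of 1.52, with a log2 change of 0.38 (SE 0.12), or 0.46 without siDUB1 replicate 3. KRT15 and KRT13 are adjacent genes whose coding sequences are 82.2% identical, and the change of KRT13 had the opposite sign.

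The remaining 3 keratins, KRT16, KRT5 and KRT14, did not reach 1 FPKM in 3 libraries and were left out of the fit. KRT16 (NCBI Gene 3868, chromosome 17, 41609778 to 41612767) had 0.16, 0.09 and 0.30 FPKM in siDUB1 libraries and 0.42, 0.80 and 0.65 FPKM in siControl libraries. Its groups did not overlap, but at an unknown depth values this low may rest on few fragments. KRT5 (NCBI Gene 3852, chromosome 12, 52514575 to 52520394), the basal type II keratin, had 0.26, 0.29 and 0.24 FPKM in siDUB1 libraries and 0.25, 0.49 and 0.96 FPKM in siControl libraries. KRT14 (NCBI Gene 3861, chromosome 17, 41582279 to 41586895), its type I partner, had 1.02, 0.57 and 0.99 FPKM in siDUB1 libraries and 0.85, 0.97 and 0.46 FPKM in siControl libraries. For both the groups overlapped and no difference was detectable. KRT16 is the usual partner of KRT6A, yet in siControl libraries it averaged 0.623 FPKM beside 4.58 FPKM of KRT6A and 210.0 FPKM of KRT17.

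The order of the levels was KRT80, KRT17, KRT81 and KRT13 from the top in both groups. In siDUB1 libraries KRT80 and KRT17 overlapped, as did KRT6A, KRT86 and KRT14 in turn, while in siControl libraries each of the first 7 lay wholly above the next. KRT15 was 5th in siDUB1 and 7th in siControl libraries. KRT80, KRT17 and KRT81 together made up 90.1% ± 0.312 of the summed FPKM of the 10 keratins in siDUB1 and 95.8% ± 0.105 in siControl libraries (SD, n = 3 each). The type II members summed to 60.9 ± 1.47 FPKM in siDUB1 and 322 ± 7.53 FPKM in siControl libraries, and the type I members to 47.5 ± 10.9 FPKM in siDUB1 and 224.5 ± 8.41 FPKM in siControl libraries. Both chain types were thus lower, and the ratio of type II to type I was 1.32 ± 0.243 in siDUB1 and 1.44 ± 0.0261 in siControl libraries, a difference within the spread of the siDUB1 libraries. KRT81 held 13.8 ± 4.22 times the FPKM of KRT86 in siDUB1 and 22.6 ± 4.04 times in siControl libraries.

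Among all keratins, the 10 held a small share, which was smaller in siDUB1 libraries. They made up 1.81%, 1.79% and 1.48% of summed keratin FPKM in siDUB1 libraries, against 7.39%, 7.31% and 7.39% in siControl libraries, or 1.70% ± 0.187 in siDUB1 and 7.36% ± 0.0425 in siControl (SD, n = 3 each). The share was lowest in siDUB1 replicate 3, where the simple keratins were highest. KRT8, KRT18 and KRT19 together made up 97.8% ± 0.207 of keratin FPKM in siDUB1 and 91.9% ± 0.0692 in siControl libraries. A share of this kind does not depend on how the libraries are scaled against each other.

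**Figure D2:**
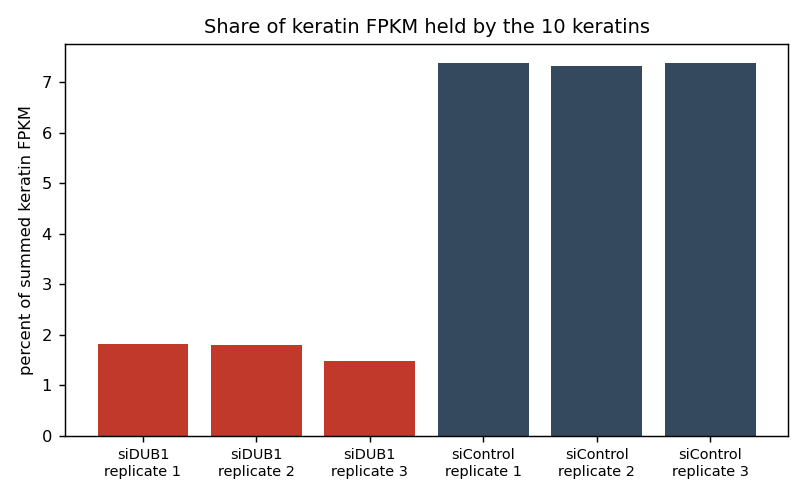
Percent of the summed FPKM of all 52 keratin genes held by the 10 keratins, in each siDUB1 library (red) and each siControl library (dark blue). The siDUB1 libraries lie between 1.48% and 1.81%, and the siControl libraries between 7.31% and 7.39%.

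Across genes, limma with Benjamini-Hochberg adjustment over all 10994 genes tested (those with 1 FPKM or more in 3 libraries or more) called 14.1% of genes different between siDUB1 and siControl, 5.92% lower and 8.13% higher. Of the 7 keratins among the 10 that were tested, 6 were called lower, KRT80, KRT17, KRT81, KRT86, KRT6A and KRT13, and none higher. As the 10 were chosen with this contrast known, nothing is read from that count. The same 6 had groups that did not overlap with siDUB1 lower, as did 28.5% of all tested genes. The median log2 change of the 7 was -1.34, beside -0.06 over all tested genes. Any keratin at 1 FPKM in the 3 siControl libraries entered the fit whatever siDUB1 did, so the 7 do not stand for all 10. Without siDUB1 replicate 3 the same 6 were called lower and KRT15 higher, in a fit that called 25.6% of all tested genes lower and 31.7% higher. The call of KRT13 was lost without siDUB1 replicate 1 and without each siControl replicate, and that of KRT86 without siControl replicate 1 or 2.

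The other keratins show where these differences stood within the family. Of 42 other keratin genes, 33 stayed under 1 FPKM in all 6 libraries, 5 of them at 0 throughout, and 9 were tested. Of the 9, 3 fell, none rose and 6 did not pass, beside 5.92% of all tested genes called lower and 8.13% higher. KRT7, a type II keratin of glandular epithelia, fell to 7.55 ± 1.66 FPKM in siDUB1, against 29.8 ± 0.884 FPKM in siControl libraries (n = 3 each, log2 change -1.86, SE 0.15, limma adjusted p = 0.00218). KRT75, a keratin of the hair follicle's companion layer, fell to 0.810 FPKM in siDUB1, against 3.29 FPKM in siControl libraries (log2 change -1.25, limma adjusted p = 0.00655). KRT71, of the inner root sheath, fell to 0.947 FPKM in siDUB1, against 2.32 FPKM in siControl libraries (log2 change -0.80, limma adjusted p = 0.0390). The call of KRT75 was lost without siControl replicate 1 or 2 (adjusted p = 0.0572 and 0.0516). That of KRT71 held in the fit with no trend and in the fit without siDUB1 replicate 3 (adjusted p = 0.0417 and 1.33e-05). It was lost in the other 5 fits without 1 library (adjusted p of 0.0790 to 0.164), with size factors, quantile normalization, a pseudocount of 0.1 and no filter, where adjusted p reached 0.158, and with a replicate block (0.103).

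The abundant simple keratins did not pass. KRT8 averaged 3373 ± 824 FPKM in siDUB1 and 3691 ± 92.1 FPKM in siControl (log2 change -0.16, 95% interval -0.61 to 0.30). KRT18 averaged 2064 FPKM in siDUB1 and 2121 FPKM in siControl (log2 change -0.06), with a sign that turned to 0.01 with size factors. KRT19 averaged 926 FPKM in siDUB1 and 1014 FPKM in siControl (log2 change -0.15). Without siDUB1 replicate 3, in which all of them were high, KRT8, KRT18 and KRT19 were lower by 0.35, 0.26 and 0.32 on the log2 scale (limma adjusted p = 0.00115, 0.00639 and 5.60e-04). With quantile normalization of all 6 libraries they were called lower too, with log2 changes of -0.39, -0.33 and -0.37 (limma adjusted p = 0.00363, 0.00797 and 0.0104). KRT10, the type I keratin of the upper epidermis and the most abundant of the remaining keratins, averaged 21.1 FPKM in siDUB1 and 17.6 FPKM in siControl (log2 change 0.23, adjusted p = 0.307). KRT6B averaged 0.940 FPKM in siDUB1 and 1.32 FPKM in siControl (log2 change -0.26, adjusted p = 0.179), and KRT23 averaged 0.780 FPKM in siDUB1 and 1.06 FPKM in siControl (adjusted p = 0.360). KRT20, an intestinal and gastric surface keratin, was at most 0.06 FPKM in every library.

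**Figure D3:**
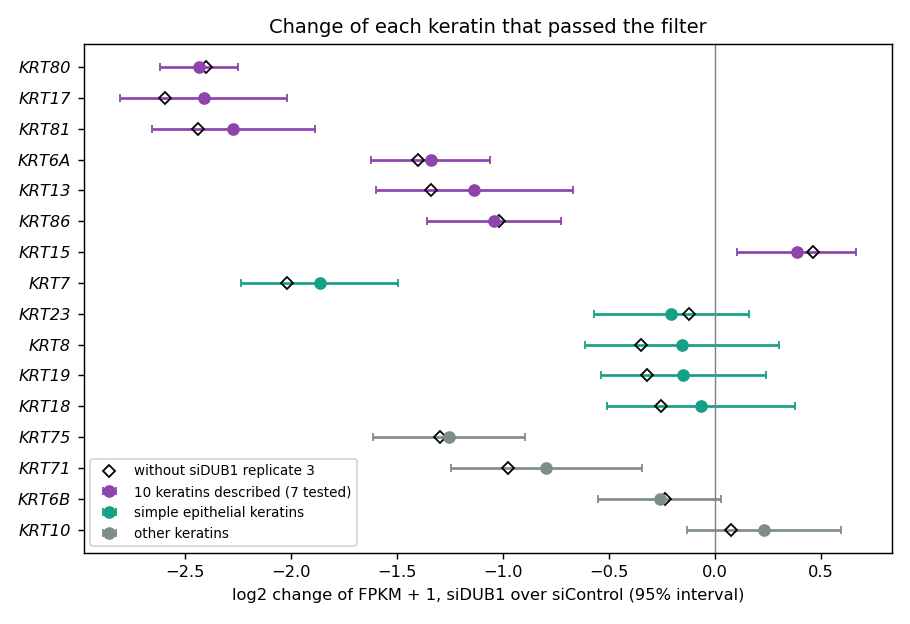
Log2 change of FPKM + 1, siDUB1 over siControl, with its 95% interval from the limma fit for the 16 keratins tested, and the change without siDUB1 replicate 3 as open diamonds. KRT80, KRT17 and KRT81 lie near -2.4 to -2.3 and KRT7 near -1.9, KRT15 lies above 0, and the intervals of KRT8, KRT18, KRT19, KRT23, KRT6B and KRT10 include 0.

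By position, several type II keratins at 1 end of the chromosome 12 cluster were lower. From KRT80 to KRT71 (52168996 to 52553145, 384 kb) the tables hold 14 keratin genes, of which 8 were tested and 7 called lower, beside 5.92% of all tested genes. This span was drawn after the calls were seen, from 1 called gene to another, so nothing is read from its count. Of the 7 called, KRT80, KRT86, KRT81 and KRT6A are among the 10 described, and KRT7, KRT75 and KRT71 are not. Of the called genes, KRT86, KRT6A, KRT75 and KRT71 met the filter on low values through their siControl libraries. So did KRT6B, the tested gene that was not called. KRT8 and KRT18, at the far end of the same cluster, are described above. The tested genes nearest to the cluster outside it were SMIM41, ATG101 and NR4A1 on the KRT80 side, at log2 changes of -0.03, 0.16 and 0.05 with adjusted p of 0.915, 0.480 and 0.732. On the KRT18 side EIF4B did not pass (log2 change 0.21, adjusted p = 0.106), and TNS2 and SPRYD3 rose, with log2 changes of 0.56 and 0.50 (adjusted p = 0.0192 and 0.0323). TNS2 had 1.97, 1.69 and 1.96 FPKM in siDUB1 libraries and 1.08, 0.86 and 0.89 FPKM in siControl libraries. It met the filter on low values through its siDUB1 libraries, so nothing is read from its call. The calls of TNS2 and SPRYD3 were lost without any 1 of the siControl replicates (adjusted p of 0.0849 to 0.119 and of 0.141 to 0.152).

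In the chromosome 17 cluster KRT13 and KRT17 were lower, as was KRT16, next to KRT17, at the low values given above, and 6 of the 26 keratin genes were tested. KRT19 lies on the far side of KRT15 from KRT13, where KRT15 had the higher siDUB1 values given above and KRT19 did not pass. The tested genes inside the cluster that are no keratins were KRTAP2-3 and KRTAP3-1, of the keratin-associated proteins that crosslink hair keratins. KRTAP2-3 fell to 1.56 ± 0.189 FPKM in siDUB1, against 6.79 ± 0.261 FPKM in siControl libraries (n = 3 each, log2 change -1.61, SE 0.11, limma adjusted p = 0.00195). KRTAP3-1 fell to 1.52 FPKM in siDUB1, against 4.47 FPKM in siControl libraries (log2 change -1.12, limma adjusted p = 0.0067, and 0.0555 without siControl replicate 1). Of the tested genes just outside the cluster, EIF1 and JUP beyond KRT17 did not pass (log2 changes of 0.04 and -0.11), and neither did P3H4 (0.23). On the other side SMARCE1 and IGFBP4 did not pass (0.02 and 0.43), and TNS4 rose to 381.5 FPKM in siDUB1, against 268 FPKM in siControl libraries (adjusted p = 0.0198, and 0.0519 to 0.120 without any 1 library other than siDUB1 replicate 3). These neighbours were chosen by position after the data were seen.

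**Figure D4:**
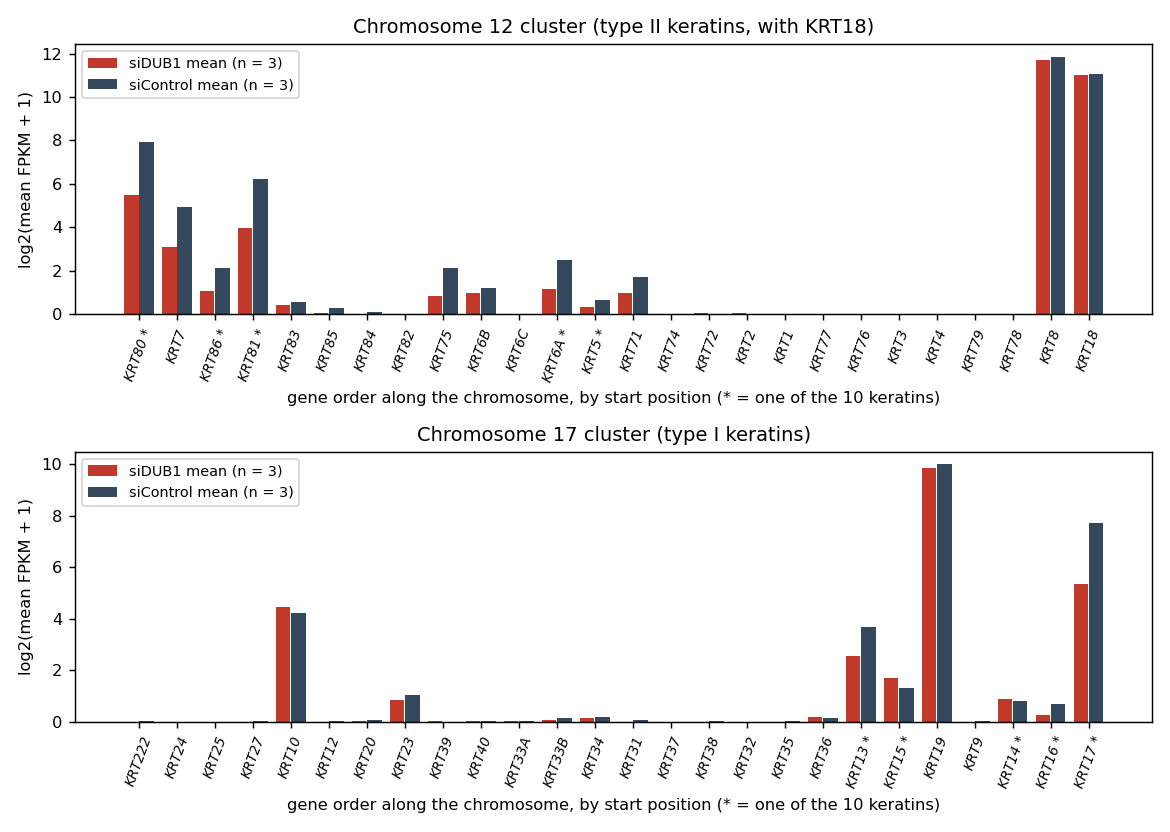
log2(mean FPKM + 1) of every keratin gene in the tables, siDUB1 (red) and siControl (dark blue), in gene order along the chromosome 12 cluster (top) and the chromosome 17 cluster (bottom); asterisks mark the 10 keratins. On chromosome 12 the detected keratins from KRT80 to KRT71 have lower siDUB1 bars while KRT8 and KRT18 differ little; on chromosome 17 KRT17 and KRT13 are lower and KRT15 is slightly higher.

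The GC content of all 10 transcripts was above the median. It ran from 55.8% for KRT6A to 62.3% for KRT81, against a median of 50.3% over tested genes. siDUB1 replicate 3 relative to the mean of siDUB1 replicates 1 and 2 was 1.48 for KRT17, 1.66 for KRT13, 1.24 for KRT6A, 0.928 for KRT80, 0.906 for KRT86 and 0.784 for KRT15, beside a median of 0.816 over tested genes. The part of GC content in these values was not tested. KRT5 was the only 1 of the 10 in the RefSeq promoter table used (GRCh38.p14). On neither strand did its listed sequence hold the motif TGANTCA, which 7.71% of all promoters in that table held. The same was true of the motif spelled GGAATG, held by 14.03% of promoters. It was also true of the TATA box, searched as TATAAA, held by 11.5%.

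Genes with the nearest profiles over the 6 libraries, by Euclidean distance between mean-centred log2(FPKM + 1) values, were sought for the 4 keratins averaging at least 5 FPKM in siControl. KRT17 and KRT81, on different chromosomes, were each other's nearest gene among all those tested (distance 0.197). After KRT17, KRT81 was nearest to CHI3L1, a secreted chitinase-like protein (0.215), TAGLN, an actin-binding protein (0.242), S100A3 (0.360) and KRT7 (0.524). The next for KRT17 were CHI3L1 (0.389), TAGLN (0.402), S100A3 (0.488) and MYL7 (0.493). KRT80 was nearest to MYL7, an atrial myosin light chain (0.433), SERPINB2, a serpin (0.445), EDN1, of endothelin-1 (0.471), GCNT4 (0.518) and KRT17 (0.549). KRT13 was nearest to genes of the contractile cytoskeleton, MYL9 (0.136), PDLIM7 (0.176), ACTG2 (0.217) and CSRP1 (0.253), and to TBC1D2 (0.260). The profiles hold the group difference itself and share libraries, so the distances are a description.

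The structures that keratins anchor to were then examined. Beside the counts of each list below, 5.92% of all tested genes were called lower and 8.13% higher. The median log2 change over all tested genes was -0.06. Of 14 desmosome genes 8 were tested, and none passed. The smallest p was that of DSC2, a desmosomal cadherin, with 6.48 FPKM in siDUB1 and 10.4 FPKM in siControl (log2 change -0.69, adjusted p = 0.155), followed by PERP (log2 change -0.56, adjusted p = 0.193). Without siDUB1 replicate 3, 4 of the 8 were called lower, DSC2 and PERP among them (limma adjusted p = 8.11e-04 and 0.00131), and 2 higher. That fit called 25.6% of all tested genes lower and 31.7% higher. The desmosomal cadherins of stratified epithelia, DSG1, DSG3, DSC1 and DSC3, were all under 1 FPKM. Of 9 hemidesmosome genes, all tested, 3 fell and none rose, with a median log2 change of -0.44. Without siDUB1 replicate 3 that median was -0.11, with 4 of the 9 called lower and 1 higher. LAMB3 and LAMA3 encode chains of laminin, the ligand of hemidesmosomes in the basement membrane. LAMB3 fell to 40.4 ± 1.42 FPKM in siDUB1, against 67.9 ± 2.83 FPKM in siControl (log2 change -0.73, SE 0.08, limma adjusted p = 0.0055), and LAMA3 to 16.7 FPKM in siDUB1, against 40.8 FPKM in siControl (log2 change -1.26, limma adjusted p = 0.0080). The receptor genes ITGA6 and ITGB4 did not pass (log2 changes of -0.59 and 0.40). ITGA6 had 55.09, 59.52 and 11.26 FPKM in siDUB1 libraries, and 53.50, 46.14 and 53.85 FPKM in siControl libraries. Without siDUB1 replicate 3 the log2 changes of ITGA6 and ITGB4 were 0.16 and 0.26. In that fit ITGA6 did not pass and ITGB4 was called higher (limma adjusted p = 0.0582 and 0.00139).

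Of 23 cornified envelope genes, 10 of the 22 in the tables were tested, with 3 that fell, 1 that rose and 6 that did not pass (median log2 change -0.19). SPRR2D, a small proline-rich envelope precursor, fell to 5.15 FPKM in siDUB1, against 12.0 FPKM in siControl (log2 change -1.08, limma adjusted p = 0.00781). TGM1, the transglutaminase that crosslinks the envelope, fell to 1.39 FPKM in siDUB1, against 2.64 FPKM in siControl (log2 change -0.61, adjusted p = 0.0257). FLG, of filaggrin, fell too (log2 change -1.48, adjusted p = 0.0318, or a log2 change of -1.11 without siDUB1 replicate 3). CDSN, of corneodesmosin, rose to 2.40 FPKM in siDUB1, against 1.34 FPKM in siControl (log2 change 0.54, adjusted p = 0.0304). Of 18 transcription factors of stratified epithelia 14 were tested, and 2 fell and none rose. KLF4, which promotes barrier differentiation, fell to 15.2 ± 7.27 FPKM in siDUB1, against 42.5 ± 1.83 FPKM in siControl (log2 change -1.55, adjusted p = 0.0407). Without siDUB1 replicate 3 the log2 change of KLF4 was -1.10. OVOL1 fell with a log2 change of -0.51 (adjusted p = 0.0476).

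Of 9 hair follicle factors 4 were tested and MSX2 fell, to 36.8 FPKM in siDUB1, against 61.2 FPKM in siControl (log2 change -0.72, adjusted p = 0.0133), while HOXC13, an activator of hair keratin genes, averaged 4.003 FPKM in siDUB1 and 3.25 FPKM in siControl and did not pass (adjusted p = 0.246). Of 16 wound edge genes 8 were tested, and 2 fell and 1 rose. MMP1, a collagenase, rose to 65.2 ± 12.2 FPKM in siDUB1, against 27.9 ± 1.45 FPKM in siControl (log2 change 1.18, limma adjusted p = 0.0080). The other 5, among them HBEGF and PLAUR, did not pass. Of 9 AP-1 genes 8 were tested and ATF3 fell (log2 change -0.87, adjusted p = 0.0317), while FOSL1 averaged 81.8 FPKM in siDUB1 and 81.6 FPKM in siControl. FOS had 14.95, 15.24 and 5.47 FPKM in siDUB1 libraries and 3.92, 3.38 and 3.76 FPKM in siControl libraries. Its log2 change of 1.34 did not pass (adjusted p = 0.0564), but it was called higher with size factors and without siDUB1 replicate 3. Of 11 keratin partners, all tested, TRADD, a death receptor adaptor that binds KRT18 and KRT14, rose to 16.8 FPKM in siDUB1, against 9.66 FPKM in siControl (log2 change 0.73, adjusted p = 0.0307), and the other 10, SFN and PLEC among them, did not pass.

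These 14 calls over the 8 lists depended on single libraries. They were 1, 1 and 2 without siControl replicate 1, 2 or 3, and of the genes named above LAMB3 alone was among them, without replicate 3. With size factors TGM1 and TRADD were not called, with a pseudocount of 0.1 FLG and OVOL1 were not, and with no filter CDSN, KLF4 and OVOL1 were not. The calls were 7, 11 and 48 without siDUB1 replicate 1, 2 or 3. The lists were set with earlier results of these data known, and their medians ran from -0.44 to -0.04, beside -0.06 over all tested genes. Without siDUB1 replicate 3 the medians lay between -0.23 and -0.01, beside 0.02 over all tested genes. With siDUB1 compared only with siControl, an effect of less USP36 and other effects of the duplex cannot be told apart.

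**Figure D5:**
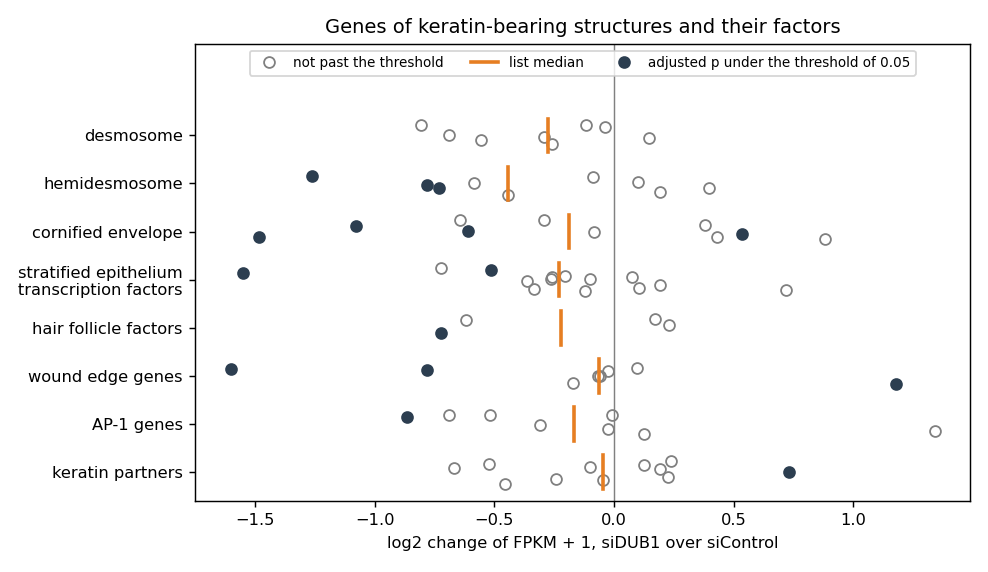
Log2 change of FPKM + 1, siDUB1 over siControl, of the tested genes in 8 lists, 1 point a gene (filled where the limma adjusted p was under 0.05), with an orange bar at each list's median. Few genes of each list pass, and the medians lie between -0.44 and -0.04.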

How the data were processed

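The authors deposited 1 table per library with an NCBI Gene ID and an FPKM value with 2 decimals, per the file headers, for 18597 genes. Total RNA was taken up in Trizol and libraries followed BGISEQ-500 protocols, per the labels' protocols, and GRCh38 is the genome build named in the submitters' processing notes. Aligner, counting tool, annotation, use of strand and treatment of reads that match several genes are not given in the sources used here. RefSeq (GRCh38.p14) gave symbols and gene positions for 18437 IDs, and GENCODE 29 gave transcripts, strands and exons. Per member the transcript with the longest coding sequence was used, and coding sequences were aligned globally with Biopython 1.88.

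Genes with FPKM of at least 1 in at least 3 libraries (10994) were fitted on log2(FPKM + 1) by limma (version 3.58.1, under R version 4.3.3), whose lmFit was followed by eBayes with trend = TRUE. The model held both groups, no covariate and every library, and its two-sided p-values were adjusted over all genes at a threshold of 0.05. The procedure was first tested on simulated data. With 3 libraries a group, exact permutation of 1 gene cannot go below p = 0.1. The members and lists were chosen with earlier results of these data known. Named were the 10 members, the simple keratins and, of the other keratins, up to 3 by mean level, then from each list up to 2 rising and 2 falling genes of smallest adjusted p, or up to 2 with the smallest p where none passed, and the 5 nearest profiles. KRT6B, FLG and genes given as not passing beyond this rule were named after their values were seen. Some genes that the rule names and 1 sequence are not reported here. Alternatives were size factors, quantile normalization, a pseudocount of 0.1, no filter, no trend, a replicate block and leaving out each library.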

Additional observations from a re-analysis of the deposited data

How the results depend on the processing

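All 7 tested members kept the sign of their log2 change in all 12 other settings. The share of keratin FPKM is a ratio within each library, so size factors cannot change it. The range was -2.50 to -2.36 for KRT80, -2.59 to -2.30 for KRT17, -2.44 to -2.16 for KRT81, -1.85 to -1.15 for KRT6A, -1.52 to -0.87 for KRT86, -1.34 to -0.99 for KRT13 and 0.32 to 0.56 for KRT15. The 6 members called lower remained 6 with every setting other than a replicate block and the fits without siDUB1 replicate 1 or 1 siControl replicate, where they were 4 or 5. KRT15 was called higher with size factors, with quantile normalization and without siDUB1 replicate 3. KRT18 changed sign, with 0.0071 with size factors and 0.0322 and 0.0297 without siDUB1 replicate 1 or 2, within a range of -0.33 to 0.03 over all settings, and -0.26 without siDUB1 replicate 3. The 1545 genes called (651 lower, 894 higher) were 2555 (1191 and 1364) with quantile normalization. Leaving out 1 library gave between 125 and 6299 calls (lower 71 to 2818, higher 54 to 3481), and between 1 and 48 of the list genes in place of 14, and the cause was not tested. With size factors 47.6% of calls were higher, in place of 57.9%. Whether the shared replicate numbers pair the libraries was not settled. Deviations of same-numbered libraries from their group means correlated at 0.254, -0.491 and -0.227. Such deviations cancel out within each group, and siDUB1 replicate 3 stands apart, so these values cannot decide on pairing. The fit with the replicate number as a block called 179 genes (98 lower, 81 higher), 5 members and 3 list genes. Depth is unknown, which limits KRT16, KRT5 and KRT14.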
